A study of Mus musculus with 4 samples.

Results

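Genes of glycolysis and of the response to low oxygen were compared between CLP_RAGhigh and CLP_RAGlow, a pair of sorted fractions of CLP, common lymphoid progenitors, which live in bone marrow and give rise to B cells, T cells and natural killer cells. The members were chosen by symbol, from a list of 39 genes, with 1 probe set per gene, the one with the highest mean over the 4 arrays. Of the 39, 35 were measured, among 18193 genes on the array. Eno1 and Gpi1 were not analysed here, the probe sets of Bnip3l are annotated to several genes, and Gapdh is represented by its control probe sets, described apart from the test.

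Both fractions came from bone marrow of C57Bl6 mice aged 8 to 12 weeks, with 2 arrays per fraction and 2000 cells per array, hybridised to Affymetrix MOE430_2 arrays. The labels describe the fractions as high or low for GFP and name them after RAG, the recombinase of antigen receptor genes, and they do not describe the reporter. They call the replicates biological but give no animal or sort for them, so the spread behind each p-value is that of these samples and may be partly technical. No treatment is given for either fraction.

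Glycolysis splits glucose into pyruvate in the cytosol. Pyruvate is then either reduced to lactate by lactate dehydrogenase or passed into mitochondria, where pyruvate dehydrogenase, held in check by the PDK kinases, turns it into acetyl-CoA. When oxygen is low, the prolyl hydroxylases EGLN1 and EGLN3 no longer mark HIF-1α for destruction through VHL, and HIF-1 then binds short DNA elements with the core ACGTG or GCGTG and raises many glycolytic genes, glucose transporters and genes such as Vegfa, Bnip3 and Ndrg1. Some blood stem and progenitor cells in bone marrow are known for a marked use of glycolysis. MYC and cytokine signals raise glycolytic enzymes in dividing lymphoid cells.

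Genes of both pathways lay on both sides of 0, and no single gene passed the test. At a limma adjusted p under 0.05 over all genes, 0 of the 35 measured members were called, where the whole table gave 0% of 18193 genes. At an unadjusted limma p under 0.05, 1 member was higher and 4 were lower in CLP_RAGhigh, that is 2.86% and 11.4% of members, against 2.35% and 2.94% of all genes. The 5 were P4ha1, higher in CLP_RAGhigh, and Ndrg1, Ldhb, Slc2a1 and Pgk1, lower in it. The median log2 difference of the members, CLP_RAGhigh minus CLP_RAGlow, was -0.01, beside 0.0028 for all genes, and 23 of the 35 differed by less than 0.5.

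Groups that did not overlap were also counted. The pair of CLP_RAGhigh arrays was entirely above the CLP_RAGlow pair for 8 members (22.9%, against 15.4% of all genes), and entirely below it for 7 (20%, against 15.8%). Of the 25 glycolysis members, from glucose transporters to pyruvate dehydrogenase kinases, 4 were above and 6 below, and of the 10 HIF and hypoxia members 4 were above and 1 below. With 2 arrays against 2, an exact permutation test of a single gene cannot give a two-sided p below 0.333. The counts at an unadjusted p depended on single arrays, and the shares over all genes were not computed with an array left out. The lower count was 2 without CLP_RAGlow replicate 1 and 1 without CLP_RAGlow replicate 2. The higher count was 3 without CLP_RAGhigh replicate 1 and 0 without either CLP_RAGlow array.

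**Figure D1:**
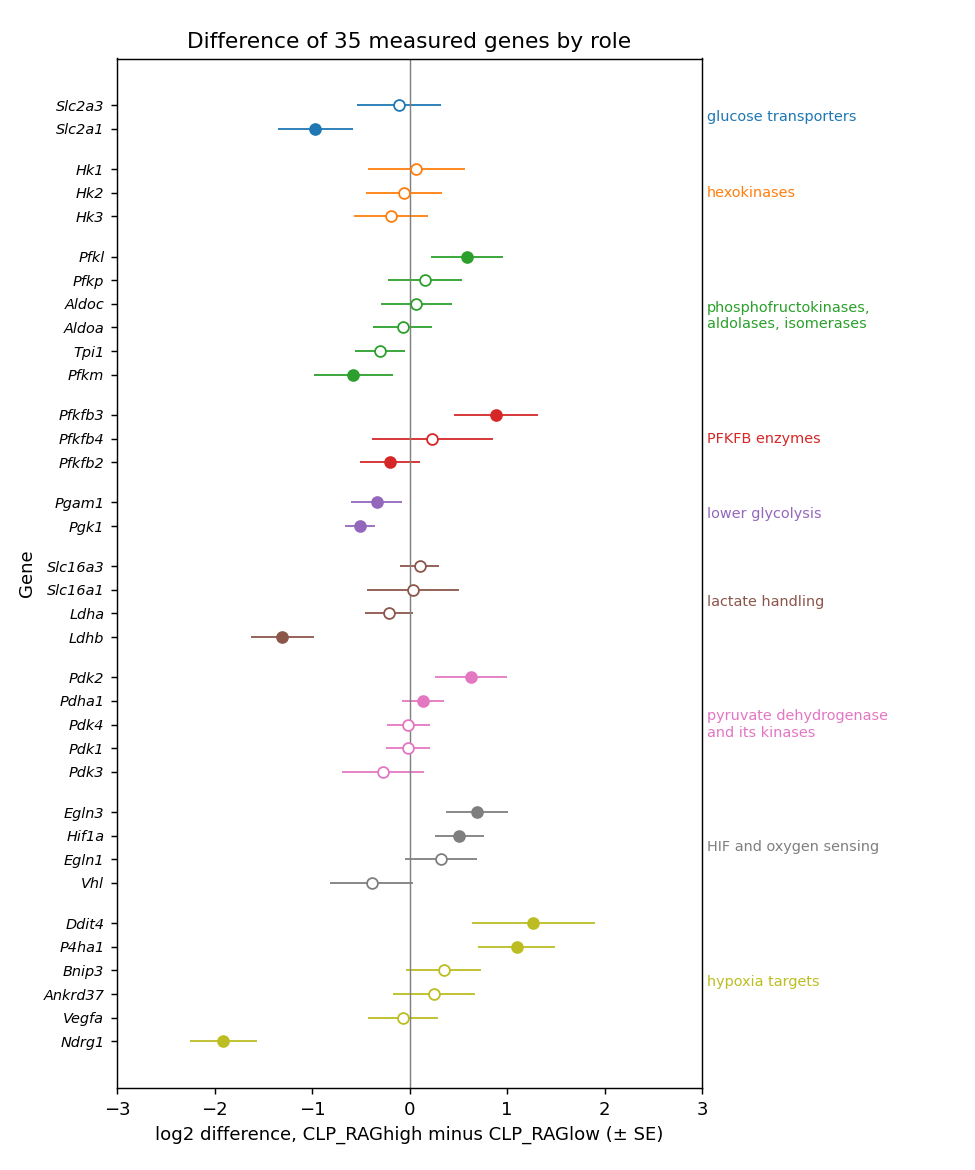
The plot gives the log2 difference of each of the 35 measured genes, CLP_RAGhigh minus CLP_RAGlow, with the standard error of the limma fit as bars and genes grouped by role on the vertical axis. Filled points mark the 15 genes whose groups do not overlap. Ndrg1, at -1.91, and Ddit4, at 1.27, lie at the ends, and most genes lie close to 0.

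The arrays were checked against markers of the sorted cells and of others. Il7r and Flt3, receptors that define the CLP, had log2 intensities of at least 10.24 and 10.65 on all 4 arrays. Of the 8 measured CLP markers, 6 had higher and 2 lower means in CLP_RAGhigh. Il7r was higher by 0.81 without overlap. Cd27 was lower without overlap (-0.43), and Kit, at 7.42 to 8.55, differed by -0.28 with overlap. Rag1, a gene of the recombinase after which the fractions are named, was at 10.92 and 10.62 on the CLP_RAGhigh arrays and at 7.72 and 8.53 on the CLP_RAGlow arrays. Rag2, the other, was at 9.47 and 9.15 in CLP_RAGhigh and at 8.12 and 8.72 in CLP_RAGlow, a smaller difference of 0.89. Of 5 measured B cell markers, 4 were higher in CLP_RAGhigh without overlap. The fifth, Ms4a1, was lower without overlap (-0.39) and below the median probe set on all 4 arrays. Their summed level was 11.04 and 10.69 log2 in CLP_RAGhigh and 8.42 and 8.43 in CLP_RAGlow. Vpreb1, the brightest, weighs most in it, at 10.72 and 10.40 in CLP_RAGhigh and 7.53 and 7.32 in CLP_RAGlow. All 11 measured cell cycle genes had lower means in CLP_RAGhigh, with a mean deviation from each gene's own mean of -0.93 and -0.19 on the CLP_RAGhigh arrays and 0.20 and 0.93 on the CLP_RAGlow arrays. Immediate early genes, induced by stimulation or handling, deviated by 1.49 on CLP_RAGhigh replicate 1 and by -0.72 to -0.22 on the other arrays. S100a8, a granulocyte gene, was at 9.62, 9.60 and 10.15 on 3 arrays and at 3.81 on CLP_RAGlow replicate 2. S100a9 was likewise at 7.94, 7.83 and 8.44 on those 3 arrays and at 3.79 on CLP_RAGlow replicate 2. The summed level of all 8 granulocyte and monocyte markers, in which Mpo weighs most, was 11.80 and 11.75 in CLP_RAGhigh and 12.11 and 11.66 in CLP_RAGlow. Their mean deviation was 0.25 and -0.12 in CLP_RAGhigh and 0.73 and -0.86 in CLP_RAGlow. The summed level of the erythroid markers was 7.75 and 6.94 in CLP_RAGhigh and 6.85 and 5.97 in CLP_RAGlow. Of these Klf1 alone was separated (2.02). Alas2 differed by 0.41 and Epor by -0.004, both with overlap, and Hba-a1 was below the median probe set on all 4 arrays. The T cell, stromal and megakaryocyte lists had a summed level of at most 6.75 on any array. The 3 MYC genes deviated on average by -0.17 and 0.03 in CLP_RAGhigh and by 0.37 and -0.23 in CLP_RAGlow, but went different ways. Myc was higher in CLP_RAGhigh without overlap, at 9.60 and 9.17 against 8.54 and 9.02 in CLP_RAGlow. Mycn differed by -1.07 and Mycl by 0.05, both with overlap. In such bulk samples, fewer cells of a type and less RNA per cell cannot be told apart.

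Glucose enters by facilitated transport. Slc2a1, which encodes the widely expressed transporter GLUT1, had log2 intensities of 7.44 and 8.14 on the CLP_RAGhigh arrays and of 8.98 and 8.53 on the CLP_RAGlow arrays. Both CLP_RAGlow arrays were above both CLP_RAGhigh arrays. The difference was -0.97 ± 0.38 (SE, n = 2 per group), a 1.95-fold lower level in CLP_RAGhigh, with a limma adjusted p of 0.928. All 3 probe sets of the gene separated the groups the same way, with differences from -1.08 to -0.97. Without CLP_RAGhigh replicate 1, the array with the lowest Slc2a1, the difference was -0.62. Slc2a3, which encodes the high-affinity transporter GLUT3, had 8.08 and 9.20 in CLP_RAGhigh and 8.66 and 8.83 in CLP_RAGlow, so that its CLP_RAGhigh arrays lay on either side of the CLP_RAGlow arrays.

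The hexokinases, which trap glucose in the cell as glucose 6-phosphate, did not separate the groups. The differences were 0.07 ± 0.50 for Hk1, -0.06 ± 0.39 for Hk2 and -0.19 ± 0.38 for Hk3 (SE). Hk1 varied most within a group, with 8.80 and 7.47 on the CLP_RAGhigh arrays.

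Phosphofructokinase catalyses the committed step, as tetramers of liver, muscle and platelet type subunits. The liver type gene Pfkl had 8.17 and 8.12 in CLP_RAGhigh and 7.22 and 7.90 in CLP_RAGlow. The muscle type gene Pfkm had 7.13 and 6.41 in CLP_RAGhigh and 7.45 and 7.25 in CLP_RAGlow. Both separated the groups, in opposite directions, with differences of 0.59 ± 0.37 and -0.58 ± 0.40 (SE) and limma adjusted p of 0.980 and 0.985. All 3 probe sets of Pfkl were higher in CLP_RAGhigh without overlap, by 0.19 to 0.68, while Pfkm had 1 probe set. Pfkm was at -0.22 without CLP_RAGhigh replicate 2, and Pfkl at 0.25 without CLP_RAGlow replicate 1. Pfkp, the platelet type, differed by 0.16 ± 0.38.

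The aldolases Aldoa and Aldoc and the triosephosphate isomerase Tpi1, which follow in the pathway, had overlapping groups. Their differences were -0.07 ± 0.30, 0.07 ± 0.37 and -0.30 ± 0.26. All 3 probe sets of Tpi1 had a lower mean in CLP_RAGhigh, and none separated the groups. The PFKFB enzymes set the level of fructose 2,6-bisphosphate, the strongest activator of phosphofructokinase. Pfkfb3, the form with the highest kinase activity, had 6.87 and 6.83 in CLP_RAGhigh and 5.51 and 6.42 in CLP_RAGlow. The CLP_RAGhigh arrays were close together and above both others, with a difference of 0.89 ± 0.43 (limma adjusted p = 0.979). The second probe set of Pfkfb3, dimmer at 3.96 to 4.59, was at -0.04. Without CLP_RAGlow replicate 1 the difference of the brighter one was 0.43. Pfkfb2 was separated by a smaller step (-0.20 ± 0.31, and -0.097 without CLP_RAGlow replicate 1), and Pfkfb4 differed by 0.23 ± 0.62, with 5.92 and 7.58 on the CLP_RAGhigh arrays.

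In the lower, energy-yielding part of the pathway, the measured members Pgk1 and Pgam1 had lower levels in CLP_RAGhigh, while Pkm, described with the further genes, had a higher level. Pgk1 encodes phosphoglycerate kinase, the first ATP-forming step. It had 11.17 and 11.53 in CLP_RAGhigh and 11.86 and 11.85 in CLP_RAGlow. The groups did not overlap, and the CLP_RAGlow arrays were nearly the same. The difference was -0.51 ± 0.15 (SE), with a limma p of 0.0181 and an adjusted p of 0.838, and -0.33 without CLP_RAGhigh replicate 1. The 3 probe sets all separated the groups, with differences from -0.51 to -0.42. Pgam1, a phosphoglycerate mutase, had 8.80 and 8.72 in CLP_RAGhigh and 9.04 and 9.16 in CLP_RAGlow, a difference of -0.34 ± 0.26. The cell cycle genes above differed in the same direction as Pgk1, Pgam1 and Slc2a1, and as Ldhb and Ndrg1 below, and their part in these differences was not tested.

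Gapdh, the enzyme before Pgk1, was read from its 3 control probe sets, which lie along the transcript. At the 3' end it had 11.38 and 11.17 in CLP_RAGhigh and 11.40 and 11.43 in CLP_RAGlow, a difference of -0.14. The middle probe set differed by -0.15 and the 5' one by 0.23. The ratio of 3' to 5' intensity, which grows when RNA is shorter or copied less far, was 15.7 and 10.6 in CLP_RAGhigh and 14.0 and 20.0 in CLP_RAGlow, and the groups overlapped. For the control gene Actb it was 16.2 and 9.6 in CLP_RAGhigh and 13.5 and 24.5 in CLP_RAGlow. Both ratios were highest on CLP_RAGlow replicate 2 and lowest on CLP_RAGhigh replicate 2, so the arrays differ in this measure of RNA.

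Lactate dehydrogenase joins 2 kinds of subunit. Ldha encodes the form that favours making lactate and Ldhb the form that favours using it. Ldhb had 7.58 and 7.44 in CLP_RAGhigh and 8.63 and 9.0 in CLP_RAGlow. Both CLP_RAGlow arrays were more than 1 log2 unit above both CLP_RAGhigh arrays. The difference was -1.30 ± 0.32 (SE, n = 2 per group), a 2.47-fold lower level in CLP_RAGhigh, with a limma p of 0.00727 and an adjusted p of 0.703. All 4 probe sets separated the groups, with differences from -1.30 to -0.61. The brightest, used here, had the largest, and the average of the probe sets gave -0.86. Leaving out 1 array gave -1.49 to -1.12. Ldha had 9.37 and 9.66 in CLP_RAGhigh and 9.86 and 9.59 in CLP_RAGlow, a difference of -0.21 ± 0.25 with overlap.

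Slc16a1, which encodes the lactate carrier MCT1, differed by 0.04 ± 0.47, and Slc16a3, the exporter MCT4 of strongly glycolytic cells, was below the median log2 intensity of all probe sets, 3.88, on all 4 arrays.

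The bases before the start of Ldha and Ldhb are shown because the related genes differ in the letters to which HIF-1 binds. The stretches are the 250 bases before the start (RefSeq, GRCm38.p6), chr7:46845554-46845803 on the plus strand for the upstream start of Ldha and chr6:142507958-142508207 on the minus strand for Ldhb. Capitals mark ACGTG or GCGTG on either strand (CACGT or CACGC on the printed strand). ACGTG is also part of CACGTG, the E-box that MYC binds, and overlapping matches count as 1 site.
Ldha: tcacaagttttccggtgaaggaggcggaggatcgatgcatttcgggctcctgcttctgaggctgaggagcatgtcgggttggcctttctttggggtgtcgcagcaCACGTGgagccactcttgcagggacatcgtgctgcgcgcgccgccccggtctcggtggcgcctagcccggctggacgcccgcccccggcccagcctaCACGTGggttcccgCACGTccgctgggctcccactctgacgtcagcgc
Ldhb: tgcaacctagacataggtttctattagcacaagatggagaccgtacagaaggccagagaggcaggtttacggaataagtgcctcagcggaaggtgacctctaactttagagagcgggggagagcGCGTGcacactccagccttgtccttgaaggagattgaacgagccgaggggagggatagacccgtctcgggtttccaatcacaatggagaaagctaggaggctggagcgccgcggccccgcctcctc
The Ldha stretch holds 3 sites, 145, 48 and 34 bases before the start, and the Ldhb stretch holds 1, 126 bases before it. The downstream start of Ldha has 1.

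The other separated members at an unadjusted p under 0.05 with an entry are shown in the same way, as the genes with the clearest differences. They are Slc2a1 (chr4:119108495-119108744, plus strand), Pgk1 (chrX:106186850-106187099, plus strand) and P4ha1 (chr10:59323046-59323295, plus strand). An entry for Ndrg1 was not used here.
Slc2a1: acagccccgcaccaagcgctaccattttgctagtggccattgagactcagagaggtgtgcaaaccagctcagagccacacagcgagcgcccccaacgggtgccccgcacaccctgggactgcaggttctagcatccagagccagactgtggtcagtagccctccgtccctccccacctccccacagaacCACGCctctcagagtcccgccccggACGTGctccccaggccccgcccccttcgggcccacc
Pgk1: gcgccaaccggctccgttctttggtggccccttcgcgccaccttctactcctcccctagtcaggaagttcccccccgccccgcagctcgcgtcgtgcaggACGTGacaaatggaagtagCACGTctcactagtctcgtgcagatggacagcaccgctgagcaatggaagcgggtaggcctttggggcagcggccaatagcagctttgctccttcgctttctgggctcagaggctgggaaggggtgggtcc
P4ha1: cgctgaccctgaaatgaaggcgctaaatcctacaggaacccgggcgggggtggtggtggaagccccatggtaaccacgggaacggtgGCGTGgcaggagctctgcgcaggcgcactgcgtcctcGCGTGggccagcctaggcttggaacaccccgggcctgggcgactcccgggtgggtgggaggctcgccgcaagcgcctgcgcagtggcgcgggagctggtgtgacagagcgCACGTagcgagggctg
Slc2a1 and Pgk1, lower in CLP_RAGhigh, hold 2 sites each, and P4ha1, higher in CLP_RAGhigh, holds 3. Entries were found for 36 of the 39 members, with 52 start sites. A site stood in 43 of these 52 stretches (82.7%), against 38.6% of 32851 stretches of the same length from all genes. The members' stretches had a median GC content of 61%, against 52.4%. Among all stretches with 55% to 67.6% GC the share with a site was 54.5%, and among those of members 82.8%. The list was made of glycolysis and hypoxia genes, many of which HIF-1 raises, so the share is not independent of how it was chosen. These matches are letters in a window and do not show binding.

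Pyruvate dehydrogenase and its kinases stand between glycolysis and mitochondria. Pdha1, the catalytic subunit gene, had 9.76 and 9.78 in CLP_RAGhigh and 9.69 and 9.57 in CLP_RAGlow, a step of 0.14 ± 0.21 that was 0.082 without CLP_RAGlow replicate 2. Pdk1, the kinase gene best known as a HIF-1 target, was at -0.02 ± 0.22 by its brightest probe set, with overlapping groups. Its other 3 probe sets were all higher in CLP_RAGhigh without overlap, by 0.22 to 1.08, so the result for Pdk1 depends on the probe set. Pdk2 had 4.69 and 5.18 in CLP_RAGhigh and 3.97 and 4.63 in CLP_RAGlow, a difference of 0.63 ± 0.37 that was 0.27 with an offset of 32 added before log2, 0.30 without CLP_RAGlow replicate 1 and 0.38 without CLP_RAGhigh replicate 2. Pdk3 differed by -0.27 ± 0.42, and Pdk4, a kinase of fasting tissues, was below the median probe set on all 4 arrays.

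Of the oxygen sensing genes, Hif1a and Egln3 separated the groups. Hif1a, the regulated subunit of HIF-1, had 9.56 and 9.94 in CLP_RAGhigh and 9.20 and 9.27 in CLP_RAGlow. Both CLP_RAGhigh arrays were higher, by a difference of 0.51 ± 0.25 (limma adjusted p = 0.979). All 4 probe sets of Hif1a separated the groups in this direction, with differences from 0.32 to 1.40, and the average of the probe sets gave 0.82. Without CLP_RAGhigh replicate 2 the difference was 0.32. HIF-1α is controlled mainly through the stability of the protein, which arrays do not measure.

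Egln3, an oxygen-dependent hydroxylase that is itself a HIF target, had 8.11 and 8.28 in CLP_RAGhigh and 7.49 and 7.53 in CLP_RAGlow. The pairs were tight and did not overlap, and the difference was 0.69 ± 0.32 (limma adjusted p = 0.963). The second probe set, dimmer at 3.36 to 4.34, was at 0.05. Egln1, the main hydroxylase of HIF-1α, differed by 0.33 ± 0.37 with overlap. Vhl, the substrate receptor of the ligase that degrades HIF-1α, had 6.56 and 7.34 in CLP_RAGhigh and 7.54 and 7.15 in CLP_RAGlow, a difference of -0.39 ± 0.42 that was 0.0018 without CLP_RAGhigh replicate 1.

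**Figure D2:**
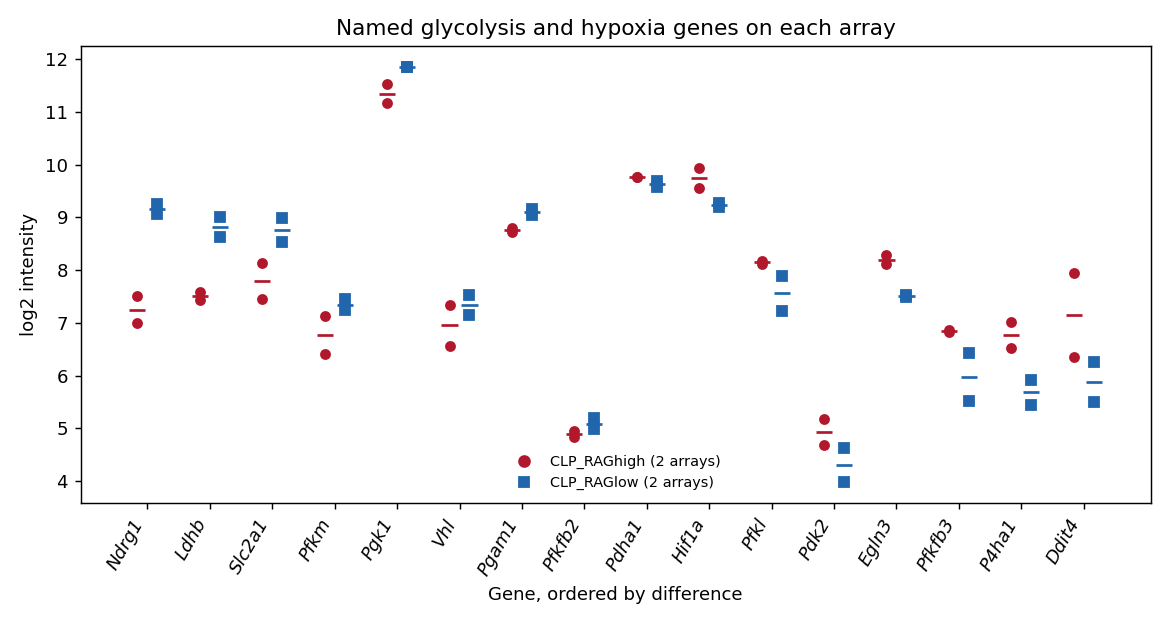
The plot gives the log2 intensity of 16 genes on each array, with circles for the 2 CLP_RAGhigh arrays, squares for the 2 CLP_RAGlow arrays and short lines for group means. Ndrg1, Ldhb and Slc2a1 lie lower in CLP_RAGhigh, P4ha1 and Egln3 lie higher, and the groups overlap for Vhl alone.

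Target genes of the hypoxia response held the largest differences of both signs among the 35 members. Means in CLP_RAGhigh were higher for 4 of the 6 measured and lower for 2, with differences from -1.91 to 1.27. Ndrg1, a differentiation and stress gene that HIF-1 and other signals induce, had 6.99 and 7.51 in CLP_RAGhigh and 9.25 and 9.07 in CLP_RAGlow. Both CLP_RAGlow arrays lay far above both CLP_RAGhigh arrays. The difference was -1.91 ± 0.34 (SE, n = 2 per group), a 3.75-fold lower level in CLP_RAGhigh, with a limma p of 0.00156 and the smallest adjusted p of the 35, 0.465. All 5 probe sets had lower means in CLP_RAGhigh, from -2.15 to -0.29, and 3 of them separated the groups. Leaving out 1 array gave -2.17 to -1.64.

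P4ha1, a collagen prolyl hydroxylase subunit, went the other way. It had 6.53 and 7.02 in CLP_RAGhigh and 5.43 and 5.92 in CLP_RAGlow, a difference of 1.10 ± 0.40 (SE) with a limma p of 0.0342 and an adjusted p of 0.904. Its second probe set, at 2.23 to 2.77 and so below the median probe set on every array, differed by 0.11 with overlap. The average of both probe sets gave 0.60. Ddit4, which encodes REDD1, an inhibitor of mTORC1 that hypoxia, glucocorticoids and cell stress induce, had 7.95 and 6.35 in CLP_RAGhigh and 5.49 and 6.26 in CLP_RAGlow. The groups did not overlap, but only by a small margin, and the difference was 1.27 ± 0.63 (limma adjusted p = 0.979). The high value came from CLP_RAGhigh replicate 1, the array on which immediate early genes deviated by 1.49, and without that array the difference was 0.47. Their part in the Ddit4 value was not tested.

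Bnip3, a mitophagy receptor, differed by 0.35 ± 0.38, Ankrd37 by 0.25 ± 0.42 and Vegfa, the vascular growth factor, by -0.06 ± 0.36, each with overlapping groups. Ankrd37 had group means of 3.88 and 3.63, both below the median probe set.

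**Figure D3:**
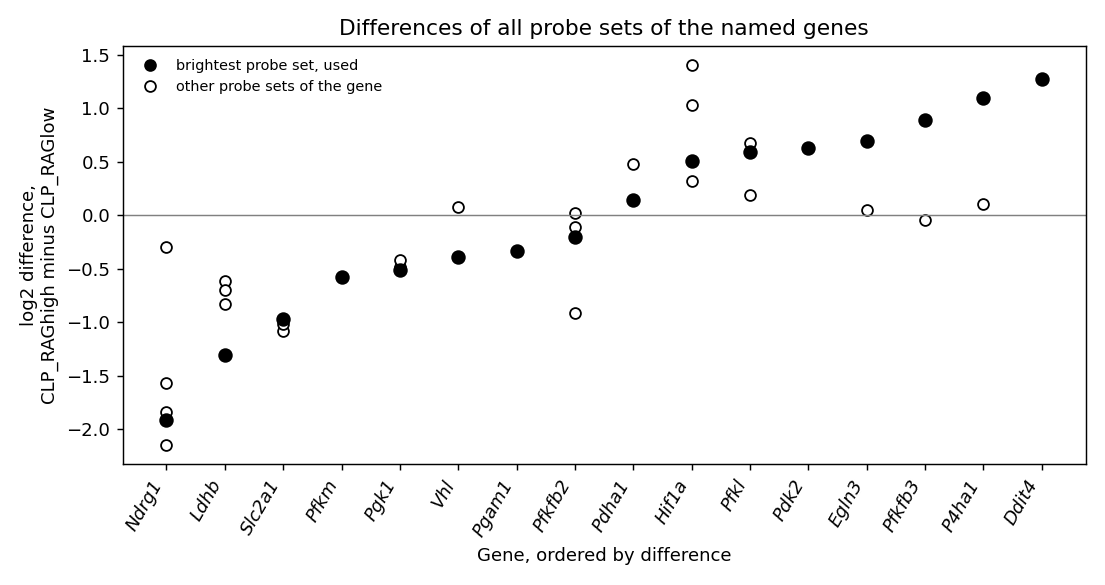
The plot gives the log2 difference, CLP_RAGhigh minus CLP_RAGlow, of every probe set of the 16 genes, filled for the brightest probe set and open for the others. All probe sets of Ndrg1, Ldhb, Slc2a1 and Pgk1 lie below 0 and all of Hif1a and Pfkl lie above, while those of Pfkfb3, Vhl and Pfkfb2 lie on both sides.

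Probe sets of 1 gene share the arrays and are no replicates. They show which values depend on the probe set, but a dim probe set says little about its gene. Some lay near or below the median probe set, 3.88, such as the second ones of P4ha1 and Egln3. Of 23 members with several probe sets, dim ones included, all of them pointed 1 way for 12 and not for 11. For pairs of related genes, chosen after the values were seen, the log2 ratio on each array restates the members' values above. The groups did not overlap for 3 of 7 pairs, each with a member already separated. The share over ratios of other gene pairs was not computed, and for single genes it was 31.1%. Ldhb over Ldha was at -1.79 and -2.23 in CLP_RAGhigh and at -1.23 and -0.59 in CLP_RAGlow, a shift of -1.10. Pfkl over Pfkm shifted by 1.17, from -0.23 and 0.65 in CLP_RAGlow to 1.04 and 1.71 in CLP_RAGhigh. Slc2a1 over Slc2a3 shifted by -0.86. The ratios of Hk1 to Hk2, Aldoa to Aldoc, Slc16a1 to Slc16a3 and Pdk1 to Pdk2 overlapped. The size of such a ratio on an array depends on the probes, so only its shift between the groups was read, and with 2 arrays a group no exact test of it can pass 0.05.

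**Figure D4:**
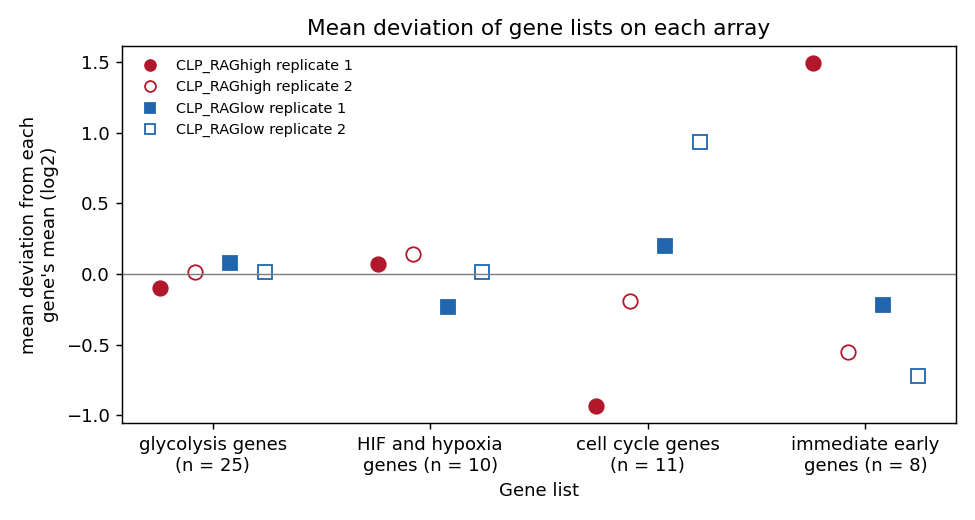
The plot gives, on each array, the mean deviation of 4 gene lists from each gene's own mean over the arrays, in log2 units. The 25 glycolysis genes stay within -0.10 to 0.08 and the 10 HIF and hypoxia genes within -0.23 to 0.14, while the cell cycle genes run from -0.93 to 0.93.

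The mean deviation of the 25 glycolysis members, which went both ways, was -0.10 and 0.01 in CLP_RAGhigh and 0.08 and 0.01 in CLP_RAGlow. The 10 HIF and hypoxia members were at 0.07 and 0.14 in CLP_RAGhigh and at -0.23 and 0.02 in CLP_RAGlow. The median differences of the lists were -0.06 and 0.34. The summed level of the glycolysis members, in which the brightest genes such as Pgk1 weigh most, was 13.20 and 13.31 log2 in CLP_RAGhigh and 13.54 and 13.45 in CLP_RAGlow, so that both CLP_RAGhigh arrays were lower. That of the HIF and hypoxia members was 11.50 and 11.45 in CLP_RAGhigh and 11.19 and 11.45 in CLP_RAGlow.

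Of 60 further genes of the same pathways, 54 were measured. At a limma adjusted p under 0.05, 0 were called, and at an unadjusted p under 0.05, 0 were higher and 2 (3.7%) were lower in CLP_RAGhigh, against 2.35% and 2.94% of all genes. This is about the share of the whole table, and the 2 are given as values. Slc16a7, which encodes the high-affinity monocarboxylate carrier MCT2, had 4.47 and 4.57 in CLP_RAGhigh and 7.03 and 6.01 in CLP_RAGlow. Its groups lay more than 1 log2 unit apart. The difference was -2.0 ± 0.44 (SE), with a limma p of 0.00447 and an adjusted p of 0.602, and it was -1.19 with an offset of 32 before log2.

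Fbp1, fructose-1,6-bisphosphatase, which runs the phosphofructokinase step backwards in gluconeogenesis, had 6.08 and 6.69 in CLP_RAGhigh and 7.62 and 7.51 in CLP_RAGlow. The groups did not overlap, with a difference of -1.18 ± 0.38 and a limma adjusted p of 0.869. Pkm, pyruvate kinase, named after its values were seen because it closes the pathway, had 9.17 and 9.29 in CLP_RAGhigh and 8.86 and 8.84 in CLP_RAGlow, a difference of 0.38 ± 0.25. Among the 26 further glycolysis genes 3 (11.5%) were separated above and 5 (19.2%) below, and among the 28 further hypoxia genes 6 (21.4%) above and 4 (14.3%) below, close to the 15.4% and 15.8% of all genes. Their median differences were -0.03 and 0.03. Csf1r, a monocyte and macrophage receptor gene, was also lower in CLP_RAGhigh, with a difference of -1.90 ± 0.52, but of the 8 granulocyte and monocyte markers 4 had higher and 4 lower means, and Csf1r alone was separated below. The part of such cells in the Slc16a7, Fbp1 and Ndrg1 values was not tested.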

How the data were processed

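RNA of 4 samples of 2000 cells was labelled with biotin and hybridised to MOE430_2 arrays, per the labels. The authors deposited RMA values per probe set as intensity, per the labels' series design. The deposited intensities run from 2.35 to 19893, so they are linear, and they were converted to log2. The array medians were 14.5, 14.8, 14.8 and 14.7, and genes were not centred. The software is not given in the sources used here. Detection calls were not used. Precision is limited by the small number of arrays.

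Of 45037 probe sets, besides 64 controls, 34945 were annotated to 1 gene, 932 to several and 9160 to none, and those of 1 gene gave 18193 genes by the brightest probe set. No filter on low values was applied. Groups came from the titles. The test was limma's (version 3.58.1, R 4.3.3), by lmFit and eBayes with an intensity trend, with 2 residual and 3.75 prior degrees of freedom. It was two-sided, p-values were adjusted by Benjamini-Hochberg over the 18193 genes, and the threshold was 0.05. The code was tested on simulated data. Alternatives were a replicate block, other probe set choices, a filter, an offset, no trend, other scalings and leaving out each array.

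Values on each array are given for members whose groups do not overlap or with unadjusted p under 0.05, and for the 6 largest differences in each direction. Further genes are named at an unadjusted p under 0.05, or with separated groups, a difference of at least 1 and a mean above the median probe set. The members, lists and rules were chosen with earlier results of these data known. Promoter sequences are from RefSeq, GRCm38.p6. Figures were drawn with matplotlib 3.10.9.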

Additional observations from a re-analysis of the deposited data

How the results depend on the processing

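No member was called under any of the 12 alternatives, with limma adjusted p for the 16 named genes from 0.328 up. Over all genes 7 were called with the replicate block, 2 with probe sets averaged and 1 without dim genes, against 0. At an unadjusted limma p under 0.05, the 1 member higher in CLP_RAGhigh became 2 with probe sets averaged, 2 without probe sets ending in _x_at, _s_at or _a_at, 2 without the trend and 0 with the offset of 32, and 0 to 3 when 1 array was left out. The 4 lower members became 2 without those probe sets, which leaves no probe set of Ldhb, and 1 to 4 when 1 array was left out. With the replicate block these counts were 1 and 3. Same-numbered arrays did not deviate together (r = -0.02 across genes, which are not independent replicates). The labels give no animal or sort, and 1 correlation over 2 arrays a group cannot decide whether the numbers pair the arrays. With 1 array left out, 11 to 14 members were separated above and 8 to 15 below, since fewer arrays overlap less. Of the further pathway genes, 1 was higher with the replicate block, 1 without the trend and 1 to 2 with 1 array left out, and 1 to 3 were lower with 1 array left out. The members' median difference was 0.11 without those probe sets, 0.046 with arrays centred and -0.088 to 0.063 with 1 array left out, while that of all genes was 0.0096, 0.062 and -0.049 to 0.049. Of 190 values of named genes under the alternatives, 189 kept their direction, but much of this was fixed in advance. A gene with separated groups cannot change direction when 1 array is left out. The replicate block, the fit without the trend and the filter on dim genes leave each difference as it was. Vhl, the named gene with overlapping groups, was at -0.39. It ran from -0.78 to 0.0018 with 1 array left out, the last without CLP_RAGhigh replicate 1. The cause of these shifts was not tested beyond what is said. A lone array of a group is taken to vary like the other group. RMA values near the background are compressed or unstable, and no signal over background was measured.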
